A study of Homo sapiens with 12 samples.

Results

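The messenger RNA of 10 receptor tyrosine kinases, MET, EGFR, AXL, ERBB2, ERBB3, FGFR1, IGF1R, PDGFRB, KDR and EPHA2, was followed through 12 RNA sequencing libraries of renal carcinoma cells. The genes were chosen by name, with earlier results of these data known, and are 10 of the 58302 genes in the deposited tables. The libraries come from the ccRCC (clear cell renal cell carcinoma) cell lines 769-P and ACHN, each transfected for 48 h with siRNA against NUF2 (siNUF2) or with a control siRNA (siControl), with 3 libraries in each of the 4 groups. NUF2 codes for a kinetochore protein that attaches chromosomes to spindle microtubules, and the study asked what its loss does to ccRCC cells. Both lines are established cultures without the vessels and stroma of a tumour, siNUF2 pooled the study's siRNAs 2 and 3 against a single control, and the lines grew in different media, so line and medium cannot be told apart. The labels do not say whether the replicates were separate cultures, so p-values measure the spread between these libraries, which may be technical.

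A receptor tyrosine kinase spans the cell membrane, binds a growth factor outside the cell and phosphorylates itself and its substrates inside it. Adaptors such as GRB2 and SHC1 then dock on the phosphorylated tails and pass the signal to the RAS-ERK and PI3K-AKT pathways, while CBL and other regulators send the receptor to degradation. In renal carcinoma, KDR and PDGFRB are known from the vessel wall, where kinase inhibitors act on them, and MET and AXL from the tumour cells.

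The deposited unit was FPKM, fragments per kilobase of gene length scaled to the size of the library, which puts different genes on a common scale. The length is that of all annotated exons of a gene, from 4159 bases for EPHA2 to 13941 for IGF1R among the receptors. It is not that of the transcripts made in these cells, so orders and shares between receptors hold for this measure only. Whole reads recovered from the FPKM gave a depth of 29157431 to 38681798 reads per library. NUF2 itself was lower in the siNUF2 libraries, at 3.68 ± 0.602 FPKM (SD, n = 3) against 18.3 ± 0.951 in the 769-P line and 3.85 ± 1.53 against 13.8 ± 1.94 in the ACHN line, in the direction of the labels in both lines. Of the 14 renal carcinoma and epithelial markers, 11 averaged at least 0.5 FPKM under siControl in the 769-P line and 12 in ACHN, among them the renal lineage factors PAX8 and PAX2. CA9, a hypoxia-driven marker of clear cell tumours, stayed at or under 0.121 FPKM in all 12 libraries. Of the 10 endothelial markers, 8 averaged under 0.1 FPKM under siControl in each line, and of the 7 immune markers, 6.

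Both cell lines carried a high level of a small group of receptors. Under siControl, MET, the receptor of hepatocyte growth factor, came first in both lines, with a mean of 98.3 ± 8.09 FPKM (SD, n = 3) in the 769-P line and 122 ± 21.3 in ACHN. MET (ENSG00000105976) is a forward-strand gene (GRCh38, chromosome 7, positions 116672390 to 116798386). Its 769-P siControl libraries read 98.4, 90.1 and 106 FPKM and its ACHN siControl libraries 122, 101 and 144, so that the ranges of the lines overlapped. In 769-P cells AXL followed at 88.8 ± 32.4 FPKM, then FGFR1 at 41.6 ± 5.23, EPHA2 at 33.7 ± 5.27 and EGFR at 31.1 ± 2.87. In ACHN cells EGFR followed at 115 ± 22.1 FPKM, then EPHA2 at 77.4 (range 74.3 to 81.2), AXL at 65.7 (range 46.6 to 86.6) and FGFR1 at 37.4 ± 9.66. These 5 receptors made up 93.6 to 96.6% of the summed FPKM of the 10 in every library.

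The order was loose where neighbours overlapped. In 769-P siControl libraries the ranges of MET and AXL overlapped, as did those of FGFR1 and EPHA2, of EPHA2 and EGFR, and of ERBB3 and ERBB2, while the other neighbours stood apart. In ACHN siControl libraries the ranges of MET and EGFR, of EPHA2 and AXL, and of AXL and FGFR1 overlapped. The steps that stood apart in both lines included those from the 5 high receptors down to the next, and from the 8 highest receptors down to PDGFRB and KDR.

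ERBB2, ERBB3 and IGF1R formed a middle class. ERBB2, which has no known ligand of its own and pairs with the other members of the EGFR family, stood at 6.48 ± 0.638 FPKM in the 769-P line and 10.5 ± 0.735 in ACHN. ERBB3, a neuregulin receptor with a weak kinase that signals through such pairs, stood at 7.36 ± 2.40 FPKM in the 769-P line and 2.49 ± 0.432 in ACHN. IGF1R, the receptor of the insulin-like growth factors, stood at 1.29 ± 0.0363 FPKM in the 769-P line and 5.55 ± 1.88 in ACHN. ERBB2 (ENSG00000141736, chromosome 17, 39687914 to 39730426), ERBB3 (ENSG00000065361, chromosome 12, 56076799 to 56103505) and IGF1R (ENSG00000140443, chromosome 15, 98648539 to 98964530) are all forward-strand genes. ERBB2 overlaps MIEN1 and PGAP3 on the other strand, and as no source used here gives the strand option of the read counting, reads shared with them cannot be told apart.

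The receptors of the vessel wall were near the bottom. KDR (ENSG00000128052, reverse strand of chromosome 4, 55078259 to 55125595), the main receptor of VEGFA on endothelium, was at 0 in 11 libraries and at 0.00542 FPKM, which is 1 read, in the first 769-P siControl library. A count of 0 allows up to 3 reads, or 0.0119 to 0.0159 FPKM of KDR depending on the library, and covers counting error only. Its defining companions in endothelium were as low: ERG was at 0 in all 4 groups, and the means of PECAM1, CDH5, VWF and FLT1 stayed at or under 0.0327 FPKM. Other endothelial markers were present: EGFL7 averaged 29.7 ± 3.08 FPKM in 769-P siControl and 23.9 ± 3.07 in ACHN siControl libraries. ESAM averaged 0.123 ± 0.0395 FPKM in the former, 0.440 ± 0.293 in the latter and 0.724 ± 0.526 in ACHN siNUF2 libraries. PDGFRB (ENSG00000113721, reverse strand of chromosome 5, 150113837 to 150155872), the receptor of PDGFB on pericytes and fibroblasts, averaged 0.0485 ± 0.0416 FPKM in 769-P siControl libraries, or 4 to 22 reads. In ACHN siControl libraries PDGFRB read 0.232, 1.17 and 0.358 FPKM, between 52 and 323 reads, and its range lay above that of 769-P cells.

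The promoters of 8 of the 10 receptors were found in the RefSeq table for GRCh38.p14, each as 250 bases before to 50 after the annotated start. FGFR1 and ERBB3 had no entry among the promoters used here, and whether the full reference lists them was not tested. The windows of EGFR, AXL and EPHA2, the receptors whose response in 769-P cells is described further on, are printed with that of KDR, the receptor with a single read in all 12 libraries, so that the sequences can be set beside the levels. Capitals mark GC boxes, searched as GGGCGG and as its reverse complement CCGCCC.
EGFR, chr7:55018767-55019066, forward strand: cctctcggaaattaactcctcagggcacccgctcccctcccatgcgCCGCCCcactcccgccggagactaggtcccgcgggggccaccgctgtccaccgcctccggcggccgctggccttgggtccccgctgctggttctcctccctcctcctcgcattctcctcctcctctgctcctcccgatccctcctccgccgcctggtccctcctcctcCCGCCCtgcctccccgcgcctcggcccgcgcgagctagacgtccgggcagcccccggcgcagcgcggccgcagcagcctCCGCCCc
AXL, chr19:41218973-41219272, forward strand: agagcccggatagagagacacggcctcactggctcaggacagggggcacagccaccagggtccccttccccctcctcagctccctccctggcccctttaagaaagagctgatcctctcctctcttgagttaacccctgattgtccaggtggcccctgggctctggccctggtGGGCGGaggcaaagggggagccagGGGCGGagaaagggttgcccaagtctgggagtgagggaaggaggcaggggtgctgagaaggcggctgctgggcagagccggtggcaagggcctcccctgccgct
EPHA2, chr1:16156020-16156319, reverse strand: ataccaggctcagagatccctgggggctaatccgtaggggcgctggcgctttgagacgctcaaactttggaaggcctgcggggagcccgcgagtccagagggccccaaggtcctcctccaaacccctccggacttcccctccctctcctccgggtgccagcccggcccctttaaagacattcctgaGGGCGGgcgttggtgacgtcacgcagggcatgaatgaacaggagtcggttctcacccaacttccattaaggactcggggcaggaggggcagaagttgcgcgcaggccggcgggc
KDR, chr4:55125546-55125845, reverse strand: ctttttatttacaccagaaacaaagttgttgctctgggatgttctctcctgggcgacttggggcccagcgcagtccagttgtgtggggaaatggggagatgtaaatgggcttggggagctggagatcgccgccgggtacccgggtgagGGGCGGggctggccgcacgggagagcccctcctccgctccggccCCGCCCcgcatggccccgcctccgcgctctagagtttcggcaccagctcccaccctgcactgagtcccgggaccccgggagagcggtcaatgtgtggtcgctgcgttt

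All 4 windows held GC boxes, that of KDR included. EGFR had 3 boxes and 75.3% GC, AXL 2 and 66.0%, EPHA2 1 and 64.3%, and KDR 2 and 65.0%, while among all 35116 promoters listed, 45.0% held at least 1 box and 14.9% at least 3, with a median GC content of 58.7%. MET also had 3, IGF1R and PDGFRB 2 each, and ERBB2 none. The second entries of EGFR and AXL, which start further into the genes, held none. TATAAA, searched on both strands, was in 11.5% of all promoters and, of the receptors with an entry here, only in the second entry of EGFR.

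Between the lines, 5 of the 8 receptors tested differed under siControl, 4 of them higher in ACHN cells. Genes were tested with limma on log2(FPKM + 0.1) where at least 3 of the 6 libraries reached 0.5 FPKM, and called at a Benjamini-Hochberg adjusted p under 0.05. The lines differed widely as a whole: 61.5% of the 15376 genes tested were called, 29.3% higher and 32.2% lower in ACHN cells, so that 5 of 8 is close to the share of all genes. IGF1R was higher in ACHN cells by 1.93 on the log2 scale (SE 0.234, adjusted p = 0.000475), a ratio of means of 4.29. EGFR was higher by 1.84 (SE 0.150, adjusted p = 8.51e-05), a ratio of 3.71. EPHA2 (ENSG00000142627, reverse strand of chromosome 1, 16124337 to 16156087), a receptor of membrane-bound ephrin-A ligands, was higher by 1.17 (SE 0.125, adjusted p = 0.000264). ERBB2 was higher by 0.65 (SE 0.114, adjusted p = 0.00248).

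ERBB3 was the receptor that went the other way. Its siControl libraries read 4.74, 9.46 and 7.88 FPKM in the 769-P line and 2.26, 2.99 and 2.23 in ACHN, and its log2 fold change of ACHN over 769-P was -1.52 (SE 0.266, adjusted p = 0.0025). The ranges of all 5 called receptors lay apart between the lines, as they did for 68.5% of all genes tested, and each gave an exact permutation p of 0.1, the smallest that 3 libraries against 3 allow. MET (log2 fold change 0.27, adjusted p = 0.148), FGFR1 (-0.21, adjusted p = 0.372) and AXL (-0.46, adjusted p = 0.232) did not pass the test. MET passed it without the second ACHN siControl library (0.39, adjusted p = 0.0319), and FGFR1 without the first (-0.42, adjusted p = 0.0406).

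**Figure D1:**
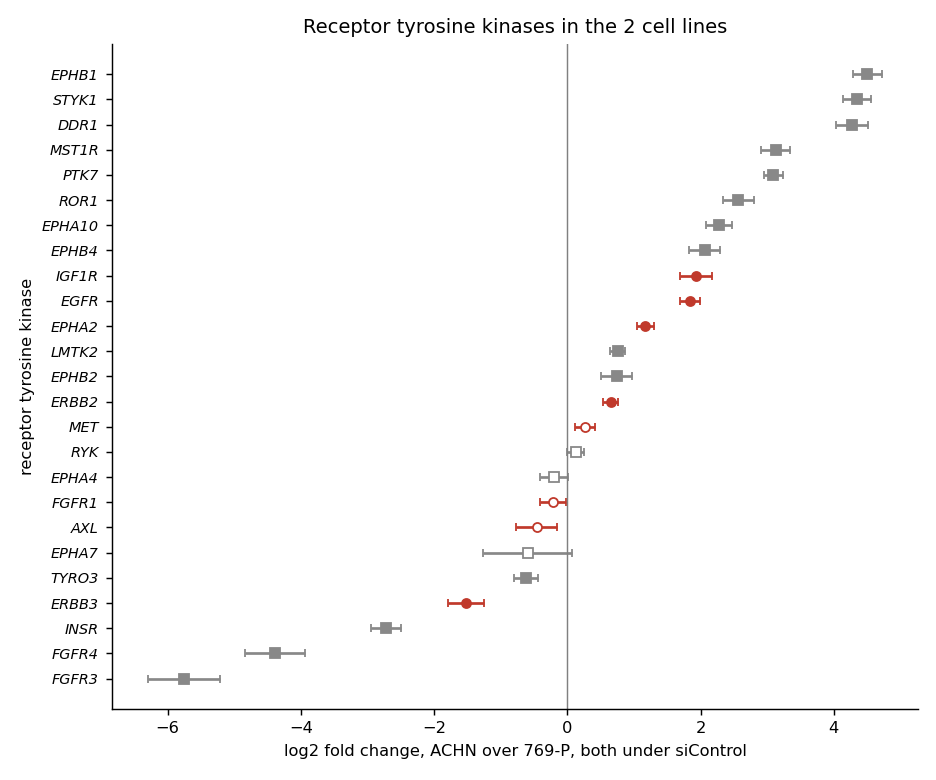
Log2 fold change of ACHN over 769-P cells under siControl for the receptor tyrosine kinases tested, with bars of 1 SE; red circles are the 10 receptors followed here, grey squares other receptor tyrosine kinases, and filled symbols have an adjusted p under 0.05. IGF1R, EGFR, EPHA2 and ERBB2 lie to the right of 0 and ERBB3 to the left, and the grey squares of EPHB1 and FGFR3 mark the ends.

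In 769-P cells, siNUF2 libraries held more EPHA2 and AXL and less EGFR than siControl libraries. EPHA2 was the receptor called without regard to the replicate numbers, out of 8 tested, when 9.98% of all 14155 genes were called, 5.26% higher and 4.71% lower. Since same-numbered libraries of a line deviated from their group means together, a second fit took the replicate number as a blocking term, and in it 6 of the 8 receptors were called, 3 higher and 3 lower, against 27.5% of all genes, 13.6% higher and 13.9% lower. EPHA2, AXL and ERBB2 rose and EGFR, ERBB3 and FGFR1 fell in that fit. In 8 of 8 receptors tested, all 3 same-numbered pairs moved the same way, as they did for 63.0% of all genes.

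EPHA2 read 39.6, 32.0 and 29.4 FPKM under siControl and 51.4, 45.0 and 47.6 under siNUF2, so the groups did not overlap. Its log2 fold change was 0.53 (SE 0.122, adjusted p = 0.0405, and 0.00963 with the block), a ratio of means of 1.43. The call without the block was lost when any siNUF2 library, or siControl library 2 or 3, was left out, with adjusted p of 0.0723 to 0.122. With the block it held without each of the 3 pairs, at adjusted p of 0.00854 to 0.0313.

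AXL (ENSG00000167601, forward strand of chromosome 19, 41219203 to 41261766), the receptor of GAS6, read 126, 75.1 and 65.5 FPKM under siControl and 163, 109 and 118 under siNUF2. The groups overlapped, because the first siControl library lay above siNUF2 libraries 2 and 3, but each pair rose. The log2 fold change was 0.60 (SE 0.263, adjusted p = 0.198, and 0.0141 with the block). ERBB2 went from 6.39, 7.15 and 5.89 FPKM to 7.69, 8.21 and 8.03, without overlap, with a log2 fold change of 0.31 (SE 0.0899, adjusted p = 0.0741, and 0.0298 with the block).

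EGFR (ENSG00000146648, forward strand of chromosome 7, 55019021 to 55211628), the receptor of EGF, TGFA and AREG, read 34.2, 30.4 and 28.6 FPKM under siControl and 27.0, 22.4 and 17.6 under siNUF2. The groups did not overlap, and the log2 fold change was -0.48 (SE 0.159, adjusted p = 0.105, and 0.0138 with the block). Within each library the ratio of AXL to EGFR FPKM was 3.68, 2.47 and 2.29 under siControl and 6.03, 4.88 and 6.69 under siNUF2, so that every siNUF2 library lay above every siControl library. The ratio sets a receptor that rose over one that fell and was chosen with these values known, so its separation is no further result. In ACHN cells the ratios overlapped, at 0.479, 0.801 and 0.457 under siControl and 0.756, 1.05 and 0.714 under siNUF2. EGFR and AXL also kept their calls with the block without each pair, at adjusted p of 0.012 to 0.0418 for EGFR and 0.00945 to 0.0361 for AXL.

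ERBB3 read 4.74, 9.46 and 7.88 FPKM under siControl and 3.82, 7.02 and 4.58 under siNUF2. The groups overlapped, each pair fell, and the log2 fold change was -0.49 (SE 0.294, adjusted p = 0.334, and 0.0249 with the block). FGFR1 (ENSG00000077782, chromosome 8), a fibroblast growth factor receptor, read 47.5, 37.4 and 39.8 FPKM under siControl and 42.1, 33.8 and 32.6 under siNUF2, with a log2 fold change of -0.19 (SE 0.133, adjusted p = 0.402, and 0.0367 with the block). The block calls of ERBB2 and FGFR1 were lost without any 1 of the 3 pairs, and that of ERBB3 without the second pair (adjusted p = 0.0608). IGF1R read 1.33, 1.30 and 1.26 FPKM under siControl and 1.67, 1.44 and 2.10 under siNUF2, without overlap, and did not pass either test (log2 fold change 0.39, adjusted p = 0.164, and 0.0968 with the block). MET, at 98.4, 90.1 and 106 against 96.7, 85.5 and 88.0 FPKM, did not pass either (-0.11, adjusted p = 0.442, and 0.200 with the block). Over the receptors tested, 4 had groups that did not overlap, beside 33.3% of all genes, and their exact permutation p was 0.1.

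In ACHN cells no receptor passed the test without the block. This held for all 15116 genes tested, 0.0% of which were called by limma or by limma-voom on the recovered reads, with 1238 genes and none of the 9 receptors tested under an unadjusted p of 0.05. With the block 5 receptors were called, IGF1R, AXL and ERBB2 higher and MET and EGFR lower, against 12.2% of all genes, 7.14% higher and 5.05% lower. In 8 of the 9 receptors all 3 pairs moved the same way, against 54.8% of all genes. These calls were fragile: EGFR and MET held without the second pair (adjusted p = 0.0309 and 0.0412), no receptor held without pair 1 or pair 3, and no gene at all was called without pair 3.

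MET read 122, 101 and 144 FPKM under siControl and 96.4, 86.8 and 108 under siNUF2. The groups overlapped while every pair fell, by a log2 fold change of -0.31 (SE 0.159, adjusted p = 0.722, and 0.0273 with the block). EGFR read 97.4, 108 and 139.9 FPKM under siControl and 69.4, 94.5 and 107 under siNUF2, again with overlap and a fall in each pair (-0.34, SE 0.208, adjusted p = 0.794, and 0.0353 with the block). AXL read 46.6, 86.6 and 64.0 FPKM under siControl and 52.5, 98.8 and 76.2 under siNUF2 (log2 fold change 0.22, SE 0.306, adjusted p = 0.966, and 0.0347 with the block). Its replicates lay far apart in each group, and the second library was the highest in both.

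IGF1R showed the same picture, at 4.95, 7.65 and 4.04 FPKM under siControl and 6.18, 9.37 and 5.004 under siNUF2 (log2 fold change 0.32, SE 0.311, adjusted p = 0.924, and 0.0277 with the block). ERBB2 read 10.7, 11.1 and 9.68 FPKM under siControl and 12.7, 12.6 and 11.1 under siNUF2, and its highest siControl library lay just above the lowest siNUF2 library before scaling and just below it after (log2 fold change 0.22, SE 0.104, adjusted p = 0.668, and 0.0470 with the block). EPHA2 did not pass either test, at 74.3, 76.7 and 81.2 FPKM against 68.7, 81.8 and 85.7, with a log2 fold change of 0.04 (SE 0.112, adjusted p = 0.991, and 0.684 with the block). ERBB3, at 2.26, 2.99 and 2.23 against 1.92, 2.22 and 1.89 FPKM, and FGFR1, at 48.2, 34.5 and 29.5 against 55.2, 34.8 and 31.9 FPKM, did not pass either test (adjusted p = 0.777 and 0.989, and 0.0986 and 0.195 with the block). Of the 9 receptors, 2 had groups that did not overlap after scaling, ERBB2 and ERBB3, against 14.5% of all genes.

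PDGFRB had the widest spread. Under siControl the ACHN libraries read 0.232, 1.17 and 0.358 FPKM and under siNUF2 0.261, 2.79 and 0.622, so that the second library was the highest in both groups and the groups overlapped. The log2 fold change was 0.67 (SE 0.873, adjusted p = 0.961, and 0.156 with the block). PDGFRB passed the test on the recovered reads with the block (log2 fold change 1.02, adjusted p = 0.00118), in a fit that called 3522 of 14831 genes. Without the block its log2 fold change ranged from 0.27 without the first siControl library to 1.33 without the first siNUF2 library. RGS5, a marker of pericytes, ran from 1.46 to 6.71 FPKM in ACHN siControl and from 1.46 to 8.55 in ACHN siNUF2 libraries. RGS5 overlaps NUF2 on the other strand. Of the 11 mural and fibroblast markers, 3 averaged at least 0.5 FPKM in ACHN siControl libraries and the summed level of the list ran from 6.51 to 14.7 FPKM there and from 7.22 to 17.0 under siNUF2. Besides RGS5 these were COL1A1, at 2.26 ± 1.43 FPKM under siControl and 2.08 ± 1.16 under siNUF2, and ACTA2, at 3.49 ± 0.220 and 4.26 ± 0.253, while PDGFRA, COL1A2, COL3A1 and LUM averaged at or under 0.00393 FPKM in both. Fewer cells of a type and less RNA per cell cannot be told apart in such libraries, and the part of these markers in the PDGFRB values was not tested.

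**Figure D2:**
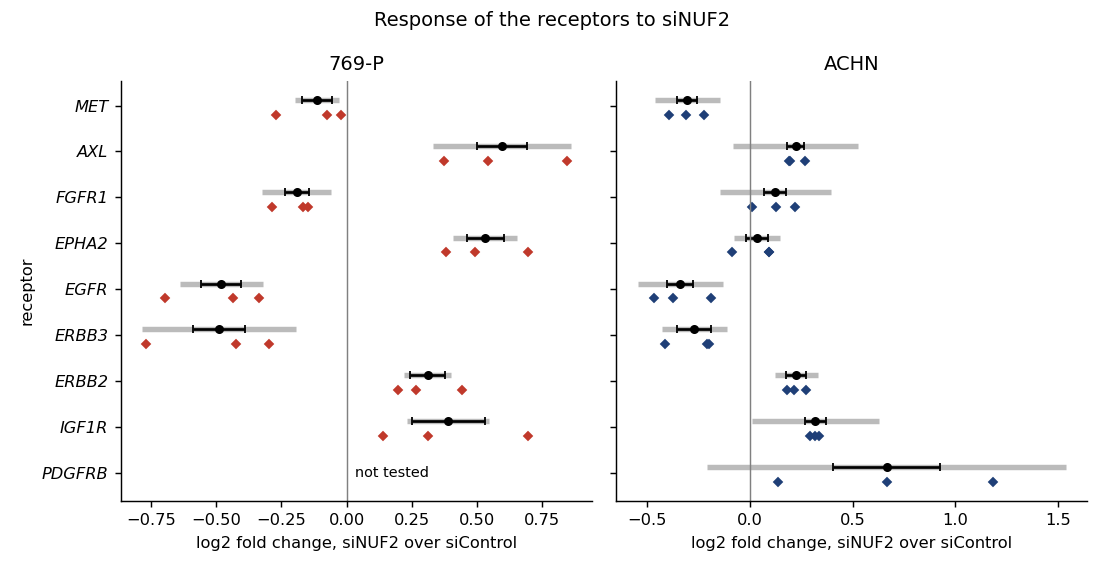
Log2 fold change of siNUF2 over siControl for 9 receptors in 769-P (left) and ACHN cells (right), on axes of different length: black points are the fitted values, grey bars 1 SE without and black bars 1 SE with the replicate block, and diamonds the differences of the 3 same-numbered pairs. In 769-P cells the diamonds of AXL and EPHA2 all lie above 0 and those of EGFR and ERBB3 below it, and in ACHN cells EPHA2 straddles 0.

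No receptor passed the test for a difference between the responses of the lines. The interaction of siRNA and line was called for 0 of the 9 receptors and for 0.0% of the 16564 genes tested, by limma and by limma-voom alike, with 776 genes and 1 receptor under an unadjusted p of 0.05. That receptor was EPHA2, whose response in ACHN less that in 769-P cells was -0.49 (SE 0.165, adjusted p = 0.952, and 0.0654 with the block). For FGFR1, lower under siNUF2 in the 3 pairs of 769-P cells and higher in the 3 of ACHN cells, the difference was 0.32 (SE 0.321, adjusted p = 1.00, and 0.0789 with the block). With the block 1.52% of all genes were called and still none of the receptors. On the recovered reads with the block, EPHA2 (adjusted p = 0.00429), FGFR1 (0.0141) and AXL (0.0386) passed, in a fit that called 1061 of 16215 genes.

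The replicates of a line carried a pattern of their own that both siRNA arms shared in part. In ACHN cells the second replicate deviated from its group mean by 0.44 (siControl) and 0.42 (siNUF2) on the log2 scale for AXL, by 0.51 and 0.48 for IGF1R and by 1.13 and 1.66 for PDGFRB, while for MET it deviated by -0.26 and -0.17. The first ACHN replicate was high in FGFR1, by 0.39 and 0.49, and low in AXL, by -0.45 and -0.47. In 769-P cells the first replicate was high in AXL, by 0.56 and 0.35, and low in ERBB3, by -0.57 and -0.37. Other deviations were not shared. The third 769-P replicate deviated by -0.035 (siControl) and 0.28 (siNUF2) for IGF1R, by 0.16 and -0.11 for ERBB3 and by 0.12 and -0.029 for MET. The second ACHN replicate deviated by -0.075 and 0.077 for EGFR.

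Of 37 ligands from the families that bind these receptors, 23 were tested between the lines under siControl. Of those, 12 were higher and 6 lower in ACHN cells, beside 29.3% and 32.2% of all genes. The list goes by family, so it also holds VEGFB, PGF and PDGFA, which are not known as ligands of the receptors followed here. AREG, a ligand of EGFR, averaged 222 ± 6.67 FPKM in 769-P siControl and 13.5 ± 0.594 in ACHN siControl libraries (log2 fold change -4.07, adjusted p = 8.3e-07). EREG, another EGFR ligand, was lower in ACHN cells by -2.08 and EFNA2, a ligand of EPHA2, by -3.57. GAS6, the ligand of AXL, averaged 1.10 ± 0.237 FPKM in the 769-P line and 40.8 ± 6.84 in ACHN (log2 fold change 5.06, adjusted p = 3.93e-06), and NRG2, a neuregulin, and VEGFC were higher by 3.62 and 3.36. The EGFR ligands did not go one way: BTC (1.51, adjusted p = 0.00154) and HBEGF (1.48, adjusted p = 0.0095) were higher in ACHN cells, and TGFA did not pass the test (0.04, adjusted p = 0.841).

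Several ligands had no or few transcripts. HGF, the ligand of MET, stayed at or under 0.0891 FPKM in all libraries, and IGF1, a ligand of IGF1R, at or under 0.00357. PDGFB, the ligand of PDGFRB, averaged 47.3 ± 1.74 FPKM in 769-P and 29.8 ± 2.64 in ACHN siControl libraries, and VEGFA, the ligand of KDR, 4.18 ± 0.351 and 8.28 ± 4.74. The ligands of both vessel receptors were thus present in cells in which the receptors were low or at 0.

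Under siNUF2, 4 of the 21 ligands tested in 769-P cells rose and 1 fell, beside 5.26% and 4.71% of all genes, and with the block 7 rose and 1 fell, beside 13.6% and 13.9%. TGFA, a ligand of EGFR, rose from 27.1 ± 1.41 to 44.0 ± 2.01 FPKM (log2 fold change 0.70, adjusted p = 0.0047), and this call held without each library in turn. GAS6 rose from 1.10 ± 0.237 to 1.96 ± 0.281 FPKM (0.80, adjusted p = 0.0469), BTC, another EGFR ligand, by 0.55 and FGF2, a ligand of FGFR1, by 0.33, while VEGFB fell by 0.29 (log2 fold change -0.29, adjusted p = 0.0343). In ACHN cells none of 25 passed without the block. With it, where 12.2% of all genes were called, AREG rose from 13.5 ± 0.594 to 19.7 ± 0.924 FPKM (log2 fold change 0.56, adjusted p = 0.0133) and VEGFC (-0.37), PDGFA (-0.34) and PDGFC (-0.26) fell. The median log2 fold change over the ligands was -0.01 in the 769-P line and -0.03 in ACHN, beside -0.01 and 0.01 over all genes.

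**Figure D3:**
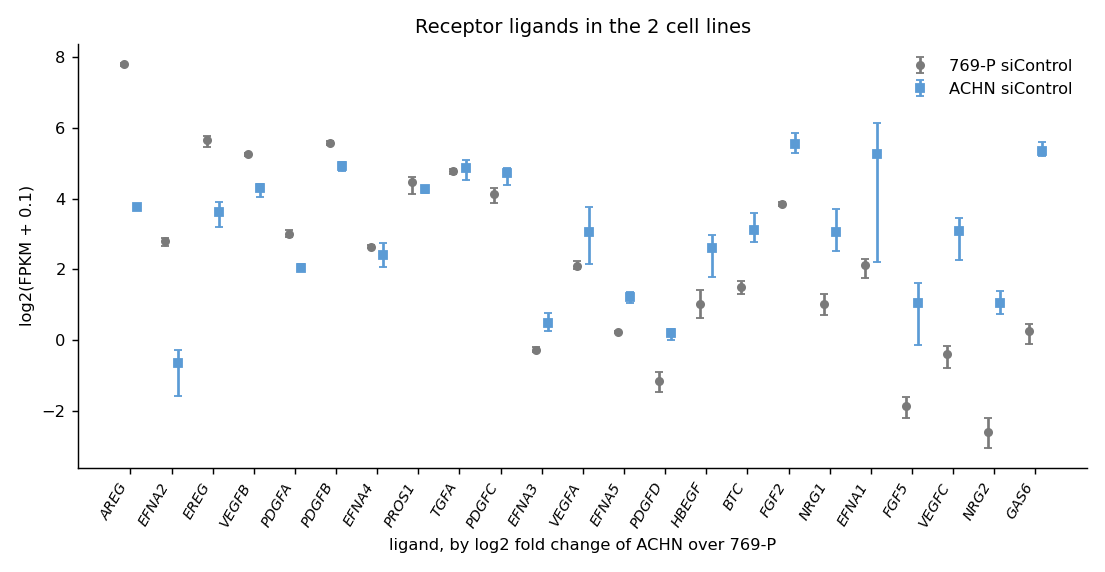
Level of the 23 ligands tested between the lines under siControl, as log2(FPKM + 0.1), with the mean as a point and the lowest and highest of 3 libraries as the bar, ordered by the log2 fold change of ACHN over 769-P cells. AREG lies at the left end, with 222 FPKM in the 769-P line and 13.5 in ACHN, and GAS6 at the right end, with 1.10 and 40.8.

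Of 47 other receptor tyrosine kinases, 13 in the 769-P line and 18 in ACHN averaged at least 0.5 FPKM under siControl. Between the lines 10 of the 17 tested were higher and 4 lower in ACHN cells, beside 29.3% and 32.2% of all genes. The fibroblast growth factor receptors FGFR3 (log2 fold change -5.75) and FGFR4 (-4.39) and the insulin receptor INSR (-2.73) were lowest in ACHN against 769-P cells, and the ephrin receptor EPHB1 (4.50), the kinase STYK1 (4.35) and the collagen receptor DDR1 (4.27) highest. FGFR4, at 88.8 ± 8.88 FPKM, matched AXL in 769-P siControl libraries, above FGFR1. Under siNUF2, EPHB2, an ephrin-B receptor, rose in 769-P cells (log2 fold change 0.60, adjusted p = 0.035), the 1 call among 13 tested without the block, beside 9.98% of all genes. With the block 7 of the 13 rose and 3 fell, beside 13.6% and 13.9% of all genes. In ACHN cells none of 18 passed without the block, and with it FGFR2 (1.43), ROR1 (0.69) and EPHB1 (0.68) rose and LMTK2 (-0.22) fell. That fit called 7.14% of all genes higher and 5.05% lower. FGFR2 was low and uneven, from 0.229 to 3.17 FPKM under siControl and from 0.79 to 5.98 under siNUF2. Without the block its SE was 1.13 (adjusted p = 0.873). The median log2 fold change over these kinases was 0.27 in the 769-P line and 0.09 in ACHN, where that over the receptors followed here was 0.10 and 0.12.

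Adaptors and signal relays were nearly all transcribed, 33 of 34 in each line. In 769-P cells 3 rose under siNUF2, AKT1 (log2 fold change 0.57), the phosphatase PTPN11 (0.47) and the adaptor SHC1 (0.40), and 3 fell, among them the PI3-kinase subunits PIK3R1 (-0.68) and PIK3CB (-0.45), with adjusted p of 0.0282 to 0.0429. These 6 of 33 stand beside 9.98% of all genes, and with the block 4 rose and 7 fell, beside 13.6% and 13.9%. In ACHN cells none passed without the block. With it, 5 rose and 3 fell, beside 7.14% and 5.05% of all genes. Among them were AKT1 (0.37), MAPK3 (0.33) and GRB7 (0.33) upward and PIK3CB (-0.77), PIK3R1 (-0.46) and FRS2 (-0.29) downward. Between the lines 13 were higher and 13 lower in ACHN cells, beside 29.3% and 32.2% of all genes, with GRB10 (1.84), BRAF (1.57) and GAB1 (1.40) at the upper end and SRC (-1.35), HRAS (-0.93) and AKT2 (-0.89) at the lower.

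Of the regulators that limit the receptors, 1 rose and 1 fell among the 25 tested in 769-P cells, close to the 9.98% of all genes called. With the block 4 rose and 2 fell, beside 13.6% and 13.9%. PTPRJ, a receptor phosphatase, rose from 7.27 ± 0.747 to 10.6 ± 0.155 FPKM (log2 fold change 0.56, adjusted p = 0.0158), and ERRFI1, an inhibitor of the EGFR kinase, fell by 0.36 (log2 fold change -0.36, adjusted p = 0.0369). In ACHN cells, with the block, PTPRJ rose by 0.84 and the ubiquitin ligase CBL (-0.27) and SPRED2 (-0.25), an inhibitor of RAS-ERK signalling, fell. That fit called 7.14% of all genes higher and 5.05% lower. Between the lines 10 were higher and 5 lower of 26 tested, against 61.5% of all genes called. LRIG1 (1.79), RNF41 (1.51) and CBL (1.16) led upward in ACHN cells, and the Sprouty genes SPRY1 (-1.79) and SPRY4 (-1.51) and SPRED3 (-1.12) downward.

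Sheddases, co-receptors and the inhibitors of HGF activation were tested as a further list. None of 15 passed in 769-P cells without the block, and with it 3 rose and 1 fell, SDC1 (log2 fold change 0.71), SDC4 (0.48) and IGF2R (0.24) upward and ADAM9 (-0.24) downward, beside 13.6% and 13.9% of all genes. In ACHN cells, with the block, the heparan sulfate proteoglycans SDC4 (log2 fold change 0.58) and SDC1 (0.56) rose and the sheddase ADAM9 (-0.21) fell. That fit called 7.14% of all genes higher and 5.05% lower. Between the lines 11 of 17 were higher and 2 lower in ACHN cells, beside 29.3% and 32.2% of all genes. SPINT2, which blocks the proteases that activate HGF, averaged 84.3 ± 6.46 FPKM in 769-P and 0.156 ± 0.0709 in ACHN siControl libraries (-8.43, adjusted p = 1.3e-06), while its relative SPINT1 was higher in ACHN cells (3.90). NRP2, a co-receptor of VEGFC, was higher by 5.19 and the Klotho gene KL by 3.09, and NRP1 lower by -1.17.

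Of 12 genes known to follow ERK activity, 3 fell in 769-P cells under siNUF2 without the block, beside 4.71% of all genes. With the block 4 fell and 2 rose, beside 13.9% and 13.6%, which adds DUSP6 (log2 fold change -0.85) downward and FOSL1 (0.39) and IER3 (0.34) upward. SPHK1 fell from 22.1 ± 3.48 to 9.89 ± 1.68 FPKM (log2 fold change -1.15, adjusted p = 0.0103), DUSP5, an ERK phosphatase, from 13.7 ± 0.635 to 7.14 ± 0.830 (-0.92, adjusted p = 0.00561) and DUSP4, another, from 1.38 ± 0.238 to 0.768 ± 0.0525 (-0.75, adjusted p = 0.0368). SPHK1 and DUSP5 held without each library in turn. In ACHN cells the one call, with the block, was IER3, which rose by 0.20, where 12.2% of all genes were called. Between the lines SPHK1 (-4.42), DUSP4 (-3.78) and ETV1 (-2.36) were lower and IER3 (1.81) higher in ACHN cells. The median over the list was -0.22 in the 769-P line and 0.14 in ACHN.

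The calls on these lists in 769-P cells rest on all 6 libraries: of the 16 genes named from them, 3 kept their call without each library in turn, TGFA, DUSP5 and SPHK1. Of the 21 named in ACHN cells with the block, none kept it without each pair in turn. Of the 33 named between the lines, all 33 kept it in the settings in which they could be tested. For DUSP4, EPHB1, INSR, KL, NRG2, SPINT1, SPINT2, SPRY1 and STYK1 these were 3 of 6. Those genes passed the filter by their higher line alone, so the filter favours a difference and their kept calls add little. Genes so admitted also enter the counts called between the lines.

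Among 12930 genes tested in both lines, those whose log2 level followed a receptor most closely over the 12 libraries were NUDT4 for EGFR (Pearson r = 0.991), CUL9 for ERBB2 (0.992), ANGEL1 for IGF1R (0.991), PEAR1 for EPHA2 (0.987), CLCN5 for ERBB3 (0.983), CEP41 for AXL (0.959), ANO7 for FGFR1 (0.941) and WSB2 for MET (0.935). Second came CCNK (0.989), IFT27 (0.983), NPNT (0.990), STARD13 (0.981), CES2 (0.980), PXN (0.953), C19orf25 (0.940) and RC3H2 (0.933) in the same order. The 12 libraries fall into 2 cell lines, so each r also holds the difference between the lines.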

How the data were processed

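Total RNA of 769-P and ACHN cells was taken 48 h after transfection with siNUF2 or siControl and sequenced on an Illumina NovaSeq, and reads were filtered with fastp by the authors. The submitters' processing notes name HISAT2 2.0.5, featureCounts 1.5.0-p3 and the build hg38, while the annotation release and the strand setting are not given in the sources used here. The values deposited by the authors are FPKM, 1 per gene and library, with nothing filtered. Of the 58302 genes, 36305 were above 0 in at least 1 library.

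FPKM were scaled within each comparison by a trimmed mean of log ratios (30% of log ratios and 5% of levels trimmed, factors from 0.983 to 1.02), and log2(FPKM + 0.1) of genes with at least 0.5 FPKM in at least 3 libraries was fitted with limma 3.58.1 in R 4.3.3 (lmFit, eBayes with a trend). Fold changes on this scale are too small for genes of low level. P-values were adjusted over all genes tested by the Benjamini-Hochberg method, a call being an adjusted p under 0.05 at any fold. Single receptors also had a two-sided exact permutation test. The authors' own DESeq2 test, from which the paper reports differentially expressed genes in both lines, was not repeated here. Whole reads were recovered from FPKM with GENCODE 29 exon lengths. Of values worth 1 to 200 reads, 96.8% came within 0.05 of a whole number, and 35254 genes (97.1% of those above 0) were recovered, for depth and limma-voom only. The fits were tested on simulated data.

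Groups and replicate numbers come from the labels. Same-numbered libraries were taken as pairs within a line, since their deviations from the group means correlated (769-P cells, 0.19 to 0.359, and ACHN cells, 0.46 to 0.735), each pair above 0.1, but not between the lines (-0.0569 to 0.0429). No library was a copy of another within its group (chi-square per gene of at least 14.5). The receptors and gene lists were chosen with earlier results of these data known. From each list, at most the 3 lowest and 3 highest called genes by log2 fold change are named, from the fit with the block where the fit without it had no call, and for each receptor tested in both lines the 2 genes most correlated with it. A called gene of the adaptor list is not reported here. FGF2 was named from the calls as the ligand of FGFR1 after its values were seen, as were FGFR4 beside AXL, PDGFB, VEGFA, HGF, IGF1, the marker genes given with values, HBEGF, BTC and TGFA between the lines, and the genes of the block named in 769-P cells (SDC1, SDC4, IGF2R, ADAM9, DUSP6, FOSL1 and IER3). The ratio of AXL to EGFR was likewise chosen with the values of both known. Figures were made with Python 3.11.15, pandas 2.3.3 and matplotlib 3.10.9.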

Additional observations from a re-analysis of the deposited data

Results flagged for a closer look

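FGFR1 was the receptor whose 3 same-numbered pairs were lower under siNUF2 in 769-P and higher in ACHN cells, and the difference of the responses was 0.32 on the log2 scale, which the interaction test did not call (adjusted p = 1.00, and 0.0789 with the replicate block). With the replicate block, the test of the interaction of siRNA and line called 5 of 134 genes of the pathway lists, beside 1.52% of all genes. The difference, as the response in ACHN less that in 769-P cells, was 1.21 for DUSP5, 0.59 for AREG, 0.34 for CRKL, -0.64 for RASA1 and -0.71 for NRP2, at adjusted p of 0.0313 to 0.0492. Without the block their adjusted p ran from 0.854 to 1.00. NRP2 lay at 0.468 ± 0.0399 FPKM in 769-P siControl libraries.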

How the results depend on the processing

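The count of genes called in 769-P cells was 1412, and it was 3898 with the replicate block, 5130 by limma-voom with the block, 635 without a filter on low values, 774 with all 12 libraries in 1 fit, 357 to 1144 without single libraries and 1691 to 3034 (2346 without pair 1) with the block without single pairs. The receptors called there went from 1 to 6 with the block, 7 by limma-voom with the block, 2 by limma-voom alone, 0 without a filter, 0 to 2 without single libraries and 3 to 4 with the block without single pairs. In ACHN cells the count of genes was 0, and 1843 with the block, 3522 by limma-voom with the block, 177 with all 12 libraries in 1 fit and 0 to 1088 (508 without pair 1) with the block without single pairs. The receptors called there went from 0 to 5 with the block, 7 by limma-voom with the block and 0 to 2 with the block without single pairs. For the difference between the lines, the count of 0 genes became 252 with the block, 1061 (3 receptors) by limma-voom with the block, 2 at a pseudocount of 0.01, 15 without a filter and 0 to 1 without single libraries. Between the lines under siControl, where the numbers do not pair the libraries, the count was 9460, 9146 with the block, and 7287 to 8128 without single libraries, with 5 to 6 receptors called. Limma-voom with the block, the block without single pairs, and the levels after scaling were chosen after seeing the data. The cause of these changes was not tested, other than that fewer libraries or genes enter some fits.

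Leaving out single libraries, in the fit without the block, turned the direction of some values. None of these had passed the test without the block, but AXL, IER3 and VEGFC in ACHN cells had passed it with the block. In the fit with the block, leaving out single pairs did not turn AXL, IER3 or VEGFC. In ACHN cells AXL ran from -0.0025 to 0.46, EPHA2 from -0.033 to 0.12 and FGFR1 from -0.13 to 0.32 (-0.032 without the third siControl library), and among the other genes IER3 from -0.072 (-0.045 without the first siNUF2 library) to 0.48 and VEGFC from -0.73 to 0.032. For the difference between the lines, EGFR ran from -0.012 to 0.32, IGF1R from -0.33 to 0.17 (0.024 at a pseudocount of 1) and PDGFRB from -0.014 to 1.05 (-0.028 at a pseudocount of 0.01 and -0.23 by limma-voom). No receptor turned in 769-P cells or between the lines under the settings tried. KDR and, in 769-P cells, PDGFRB were too low to be tested at this depth.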
